A study of Mus musculus with 3 samples.

Results

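Msmb-high secretory luminal barcodes were droplets of mouse prostate in which 3 secretory genes, Msmb, Defb50 and Wfdc3, together made up at least 2% of the unique molecular identifiers (UMIs, 1 per captured transcript). They also had at least 500 genes, at most 15% mitochondrial UMIs and less than 10% of UMIs from 7 seminal vesicle genes (Svs1, Svs2, Svs3a, Svs3b, Svs4, Svs5 and Svs6). The rule found 1436 such barcodes among 32139 deposited, with 180 in the Srd5a2 knockout library, 356 in heterozygote 1 and 900 in heterozygote 2. They were set against 3638 other Pbsn-rich luminal barcodes (539 knockout, 848 heterozygote 1 and 2251 heterozygote 2), which passed the same limits but had under 2% of the 3 genes, at least 2% Pbsn, and more Krt8 and Krt18 than basal keratins, Vim, Ptprc and Pecam1. The rule used the measured levels of these genes, so they describe the barcodes and are not tested.

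The series holds 1 Srd5a2 knockout library and 2 Srd5a2 heterozygote libraries, each a 10x Genomics single-cell count matrix from whole fresh prostate of untreated C57BL6 mice. The labels give an age of 12 to 15 weeks, and the protocol gives 12 weeks. Both genotypes went through a collagenase digestion of 2 h at 37 °C with 1 nmol dihydrotestosterone added, so androgen-responsive transcripts were read after that exposure. How many animals went into a library is not given in the sources used here, and a p-value measures the spread between the 2 heterozygote libraries, which may be technical.

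Luminal cells of the mouse prostate secrete most of the protein of prostatic fluid, and each lobe makes its own mixture. Msmb encodes beta-microseminoprotein, a small disulfide-bonded protein of seminal plasma. Defb50 encodes a beta-defensin, one of the cationic peptides that attack microbes, and Wfdc3 belongs to a family of secreted protease inhibitors with a whey acidic protein core. Srd5a2 encodes the steroid 5α-reductase that turns testosterone into dihydrotestosterone, the more potent androgen.

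Promoter windows, running from 250 bases before to 50 bases after the annotated start, were read for Wfdc3, which is part of the rule, and for H2-Q10, the gene that stood out most from the other luminal barcodes. They come from RefSeq on GRCm38.p6. Wfdc3 lies at chr2:164743218-164743517 on the minus strand and H2-Q10 at chr17:35469839-35470138 on the plus strand. The RefSeq start of Wfdc3 used here lies inside the gene as GENCODE vM21 draws it, downstream of that annotation's 5′ end, while the start of H2-Q10 is the same in both. Capitals mark the hexamer TGTTCT or, for the other strand, AGAACA, which makes up each arm of the palindromic androgen response element.
Wfdc3: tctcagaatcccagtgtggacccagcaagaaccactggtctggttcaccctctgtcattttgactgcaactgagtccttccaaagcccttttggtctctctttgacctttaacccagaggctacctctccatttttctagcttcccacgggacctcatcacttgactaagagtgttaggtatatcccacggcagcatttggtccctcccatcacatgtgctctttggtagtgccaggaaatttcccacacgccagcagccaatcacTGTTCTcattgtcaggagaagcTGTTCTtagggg
H2-Q10: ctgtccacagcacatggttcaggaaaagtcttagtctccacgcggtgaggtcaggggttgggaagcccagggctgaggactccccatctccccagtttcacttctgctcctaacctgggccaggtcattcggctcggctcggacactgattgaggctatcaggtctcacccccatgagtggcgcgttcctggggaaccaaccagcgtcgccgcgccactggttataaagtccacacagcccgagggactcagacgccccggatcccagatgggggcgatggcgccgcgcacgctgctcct
The Wfdc3 window held 2 such hexamers, starting 16 and 38 bases after the annotated start, and the H2-Q10 window held none. Of all 32851 windows of this length, 19.0% held at least 1 hexamer and 2.54% held 2 or more, and 3 windows held the full palindrome, AGAACA and TGTTCT with 3 bases between them. Of the 20 genes highest in the Msmb-high barcodes relative to other luminal ones, 14 had a window and 3 of these held a hexamer. A match is only a run of letters in the window, and the arms of the palindrome overlap with the hexamers counted.

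The 3 genes of the rule lie apart from each other in the genome (GRCm38, GENCODE vM21). Msmb is at chr14:32142023-32158370 and Wfdc3 at chr2:164731180-164745931. Defb50 is at chr8:21823539-21831296, inside a run of defensin genes. Among the neighbours of Defb50 within 200 kb, Defb1, 28.4 kb away, had 5166 CPM (UMIs of the gene per 1e6 UMIs of the library and class) in knockout, 5159 in heterozygote 1 and 3942 in heterozygote 2 Msmb-high barcodes, against 935, 576 and 474 CPM in the other luminal barcodes of the same libraries. Defa39, an alpha-defensin gene 119.9 kb away, had 211, 175 and 138 CPM in Msmb-high barcodes of knockout, heterozygote 1 and heterozygote 2, against 13.4, 8.66 and 9.48 CPM in other luminal barcodes. Defb10 and Defb2, nearer to Defb50, were also higher in the Msmb-high barcodes of all 3 libraries, while Defa24, Defb9 and Defb11, which lie in the same run, stayed at 2.04 CPM or less. Defensin genes include near-identical copies, and reads that fit several of them could have been split or dropped in the deposited counts. The neighbours of Wfdc3 did not share its level, since the Wfdc, Spint and Eppin genes within 200 kb reached at most 6.41 CPM in Msmb-high barcodes, except Wfdc2 at 1.01, 43.4 and 53.4 CPM in knockout, heterozygote 1 and heterozygote 2. Next to Msmb, the receptor coactivator gene Ncoa4 had 366, 375 and 433 CPM in knockout, heterozygote 1 and heterozygote 2 Msmb-high barcodes, against 149.65, 178 and 143 CPM in other luminal barcodes. Reads that run on from a neighbour cannot be told apart from Ncoa4's own at a distance of 1.5 kb.

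The libraries differed in ways that touch every result here. UMIs numbered 129015041 in 13273 knockout barcodes, 47601747 in 5000 heterozygote 1 barcodes and 100801564 in 13866 heterozygote 2 barcodes. The lowest deposited barcode total was 586, 2466 and 500 UMIs in the same order, and the 7 seminal vesicle genes took 41.7%, 13.2% and 11.5% of all UMIs. Msmb-high barcodes had a median of 14118.5 UMIs in the knockout, against 9644 (heterozygote 1) and 9797.5 (heterozygote 2). Barcode sequences shared between libraries numbered 15 to 57 per pair, and none of these was a Msmb-high barcode in both libraries of its pair. Srd5a2 itself had 17 UMIs in the whole knockout library, against 145 and 210 in heterozygotes 1 and 2, or 0.132 CPM against 3.05 and 2.08 CPM. In Msmb-high barcodes it had 1, 1 and 2 UMIs, too few to compare, and the deleted part of the gene is not given in the labels.

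The summed share of the 3 genes did not fall into 1 group above 2%. It had a high hump at 7% and above, with 91 knockout, 221 heterozygote 1 and 409 heterozygote 2 barcodes, and a shoulder from 2% to 5%, with 75, 96 and 436 barcodes. Between 5% and 7% there were 14, 39 and 55 barcodes. The shoulder thus made up 41.7% of the Msmb-high barcodes of the knockout, 27.0% of those of heterozygote 1 and 48.4% of those of heterozygote 2. Just inside the limit, at 2% to 2.2%, stood 10, 10 and 63 barcodes, and just outside, at 1.8% to 2%, stood 13, 11 and 50.

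**Figure D1:**
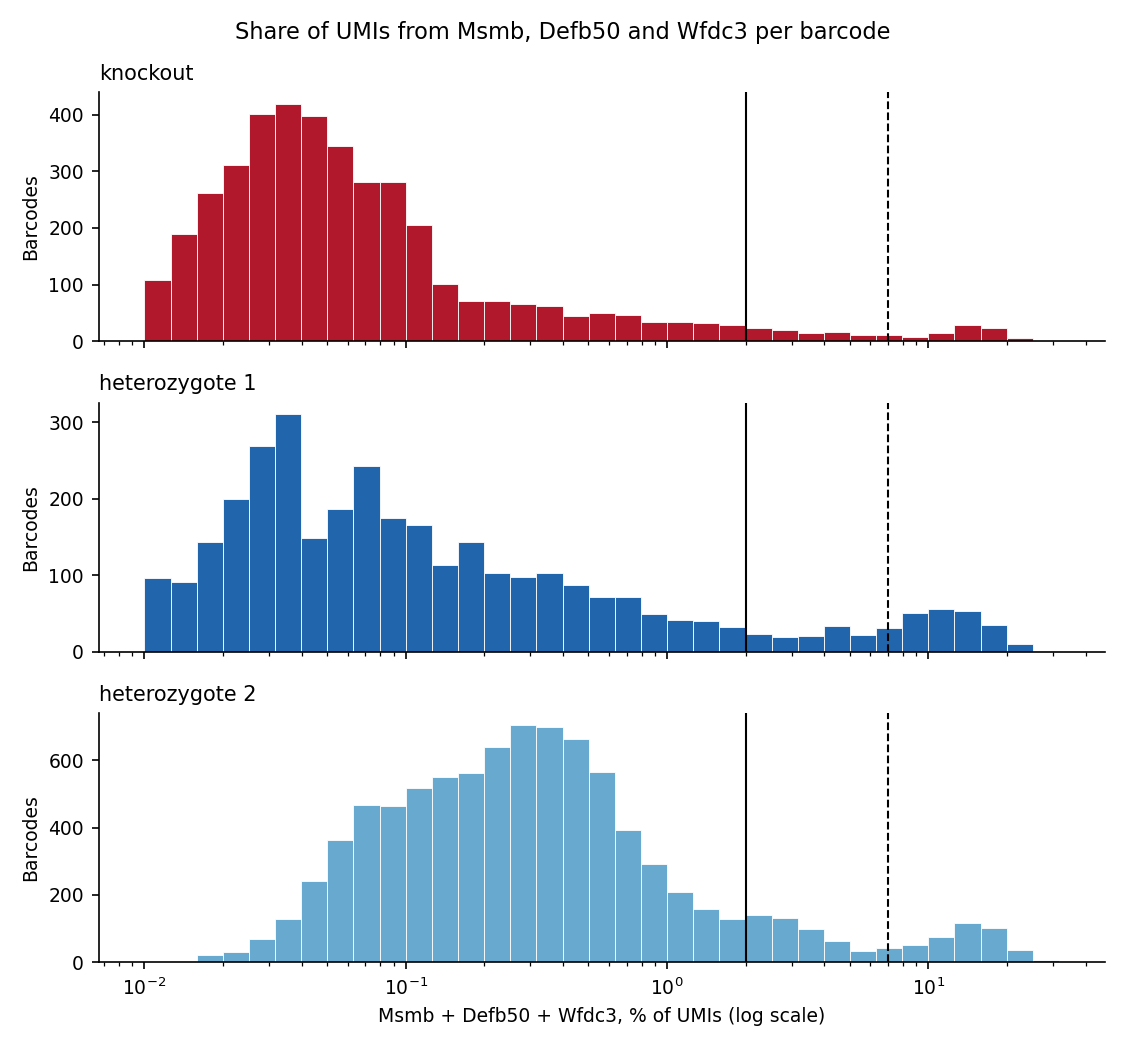
Number of barcodes (vertical axis) by the percent of their UMIs from Msmb, Defb50 and Wfdc3 (horizontal log axis), for knockout, heterozygote 1 and heterozygote 2, after the limits on genes, mitochondrial and Svs UMIs. The solid line is the 2% rule and the dashed line 7%; 1687, 602 and 21 barcodes below 0.01% are not drawn. The bulk of heterozygote 2 lies further right than in the other libraries, and each library has a separate hump above 7%.

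Levels of other secretory genes along this share showed which barcodes the 2% rule brought together. H2-Q10, a secreted class Ib histocompatibility protein, had 11.8 CPM in knockout, 56.0 in heterozygote 1 and 134 in heterozygote 2 barcodes at 2% to 3%, and 418, 1186 and 1142 CPM at 15% and above. Tgm4, the prostate transglutaminase, ran the other way, with 5830.5, 7314 and 9850.4 CPM at 2% to 3% and 275, 240.25 and 842 CPM at 15% and above. So did Ms4a5, with 2414, 849 and 437 CPM at the low end and 10.6, 10.3 and 29.96 CPM at the high end. Barcodes near the 2% limit thus held more of these transcripts, which are abundant in other luminal barcodes, than those at 15% and above.

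Sbp and Spink1 levels in the shoulder differed between the knockout and both heterozygotes. Sbp, the spermine-binding protein of prostatic secretion, had 74.3 CPM in knockout barcodes at 2% to 5%, against 36103 in heterozygote 1 and 35850 in heterozygote 2. Spink1, a secreted trypsin inhibitor, had 184.6 CPM there in the knockout, against 18327 and 18144 CPM in the heterozygotes. At 7% and above the same genes had 1563 CPM (Sbp) and 816 CPM (Spink1) in the knockout, against 4370 and 1267 CPM (Sbp) and 1546 and 1250 CPM (Spink1) in the heterozygotes. From 5% to 7%, in 14, 39 and 55 barcodes, Sbp had 11539 CPM in the knockout, against 891 and 11350 CPM, so the order did not hold there. The median Svs share at 2% to 5% was 3.81% in the knockout, 0.225% in heterozygote 1 and 4.03% in heterozygote 2, and did not follow genotype there. At 7% and above it was highest in the knockout, at 1.19%, against 0.161% and 0.226% in the heterozygotes. The part of free or mixed RNA in these shoulder levels was not tested. Barcodes under 500 genes carried 0.161% of UMIs from the 3 genes in the knockout and 0.846% in heterozygote 2; heterozygote 1 had only 2 such barcodes. For this reason genotype results below are given for all Msmb-high barcodes and, where the call changes, for those of at least 7%, a limit chosen after the distribution was seen.

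**Figure D2:**
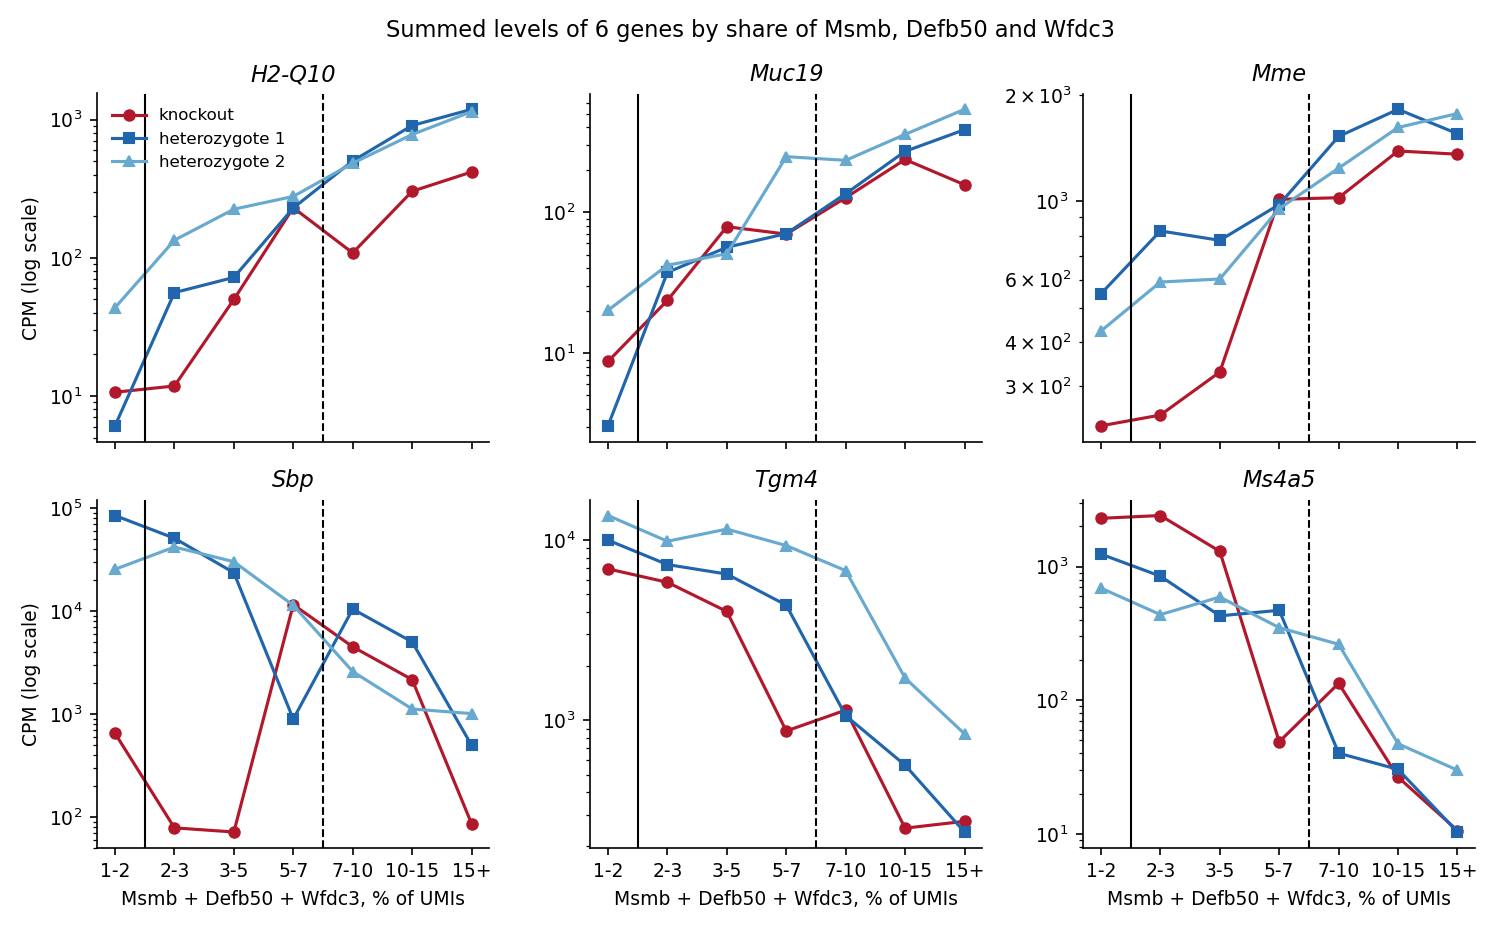
CPM (log axis) of 6 genes in UMIs summed over barcodes grouped by their percent of UMIs from Msmb, Defb50 and Wfdc3, in knockout, heterozygote 1 and heterozygote 2. Solid and dashed lines mark 2% and 7%; the knockout groups at 5-7% and 7-10% hold 14 and 17 barcodes. H2-Q10, Muc19 and Mme rise along the share in each library from the first to the last group, Tgm4 and Ms4a5 fall, and Sbp at 2% to 5% is far lower in the knockout (74.3 CPM) than in the heterozygotes (36103 and 35850 CPM).

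Luminal markers were read first. Pbsn, encoding the androgen-dependent secreted protein probasin, had a UMI in 100% of Msmb-high barcodes of each library, with a median of 1.96% of UMIs in the knockout, 2.34% in heterozygote 1 and 2.46% in heterozygote 2. Barcodes under 500 genes carried 0.631% Pbsn in the knockout and 1.31% in heterozygote 2, so a Pbsn UMI alone does not mark a luminal cell. The keratin condition used for the other luminal class was also met by 177 of 180 knockout, 346 of 356 heterozygote 1 and 845 of 900 heterozygote 2 barcodes. Markers of T or natural killer cells, ionocytes and glia summed to at most 8.36 CPM per list and library. The 6 seminal vesicle markers summed to 15731 CPM in the knockout, against 2204 and 16095 CPM in the heterozygotes, within the Svs limit of the rule. Proximal luminal markers, mostly Clu, summed to 754 CPM in the knockout, against 861 and 908 CPM in the heterozygotes, and to 267, 237.5 and 298 CPM in other luminal barcodes. Endothelial markers, mostly Pecam1, summed to 40.1 CPM in the knockout, against 83.8 and 104 CPM, and basal markers to 72.2 CPM, against 86.5 and 112 CPM. Macrophage markers summed to 28.7 CPM in the knockout, against 5.74 and 9.58 CPM in the heterozygotes, and smooth muscle markers to 163 CPM, against 60.1 and 210 CPM. The fibroblast list was at 309 CPM in the knockout, against 336 and 293 CPM, but 95.1%, 98.4% and 97.4% of it was Dcn alone.

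Dcn, encoding the proteoglycan decorin, had 294 CPM in knockout, 331 in heterozygote 1 and 286 in heterozygote 2 Msmb-high barcodes, against 33.3, 19.1 and 34.1 CPM in other luminal barcodes. Among the other fibroblast markers Lum had no UMI in the knockout, while Col1a1 had 7.08 CPM in the knockout, against 0.748 and 1.73 CPM. Col1a1 was called higher over all Msmb-high barcodes (2.43, edgeR adjusted p = 0.042) and not at 7% and above (2.90, adjusted p = 0.57). Within the Msmb-high barcodes Dcn stood at 146, 94.1 and 114 CPM at 2% to 5% and at 435, 539.6 and 464 CPM at 15% and above.

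The rule genes described the class as follows. Msmb had a median of 2.29% of UMIs per barcode in the knockout, 3.21% in heterozygote 1 and 1.90% in heterozygote 2. Defb50 had medians of 4.54%, 5.12% and 3.30%, and Wfdc3 of 0.27%, 0.49% and 0.28%. In other luminal barcodes a Msmb UMI was seen in 33.8% of knockout, 49.3% of heterozygote 1 and 90.2% of heterozygote 2 barcodes, at medians of 0.0255% of UMIs or less. At 7% and above the pooled levels were close among the libraries, with Msmb at 54512, 51970 and 54950 CPM and Defb50 at 84445, 76577 and 83463 CPM. Wfdc3 was at 7036 CPM in the knockout, against 10506 and 7815 CPM in the heterozygotes.

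Beyond the rule genes, 368 of 8482 genes at 10 CPM or more (4.34%) were higher in Msmb-high than in other luminal barcodes by over 1 on the log2 scale in all 3 libraries, and 206 (2.43%) were lower by as much. This contrast was set by the rule and carries no test. H2-Q10 led, with 228 CPM in knockout, 699 in heterozygote 1 and 629.7 in heterozygote 2 Msmb-high barcodes, against 0.363, 0.999 and 6.05 CPM in other luminal barcodes. Muc19, a gel-forming mucin gene, had 137, 220.45 and 288 CPM in the same order, against 1.45, 0.555 and 3.94 CPM.

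Cldn10, Slc12a2 and Fxyd3 were also among the 20 genes ranked highest. Cldn10, a pore-forming tight junction protein, had 188, 562 and 352.5 CPM in knockout, heterozygote 1 and heterozygote 2 Msmb-high barcodes, against 1.09, 6.88 and 9.10 CPM in other luminal barcodes. Slc12a2, the sodium-potassium-chloride cotransporter of secretory epithelia, had 704, 754 and 909 CPM, against 35.7, 25.9 and 53.1 CPM. Fxyd3, a regulator of the sodium pump, had 615, 785 and 616 CPM, against 41.4, 28.2 and 38.6 CPM. All 3 genes were picked by their difference in every library, so being higher in each is not a separate result.

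Further class genes covered several roles. Timp4 encodes an inhibitor of matrix metalloproteinases, Abo a glycosyltransferase that finishes blood group sugars, Aldh1a1 a retinaldehyde dehydrogenase, Agtr1a the angiotensin II receptor, Prdx4 a peroxiredoxin of the endoplasmic reticulum and Nucb2 the precursor of nesfatin. Together with BB123696, Pcp4, Cdcp3, Mapk13, Snhg18, Upk1a, Prom2, Defa39 and Dcn, they completed the 20 genes ranked highest by the smallest of their 3 library differences, among genes of at least 50 CPM. That smallest difference ran from 6.67 for H2-Q10 down to 2.98 for Prdx4 on the log2 scale. The 10 lowest genes were Ren1, Fgl1, Igfbp5, 9530003J23Rik, Gm37223, 9530053A07Rik, Gsdma, C1rb, Pgm2l1 and Tgm4. Ren1, encoding renin, had 66.8, 144 and 645 CPM in knockout, heterozygote 1 and heterozygote 2 Msmb-high barcodes, against 3527, 3439 and 3389 CPM in other luminal barcodes. Tgm4 had 1828, 2140.2 and 5322 CPM, against 16949, 21202 and 23220 CPM.

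**Figure D3:**
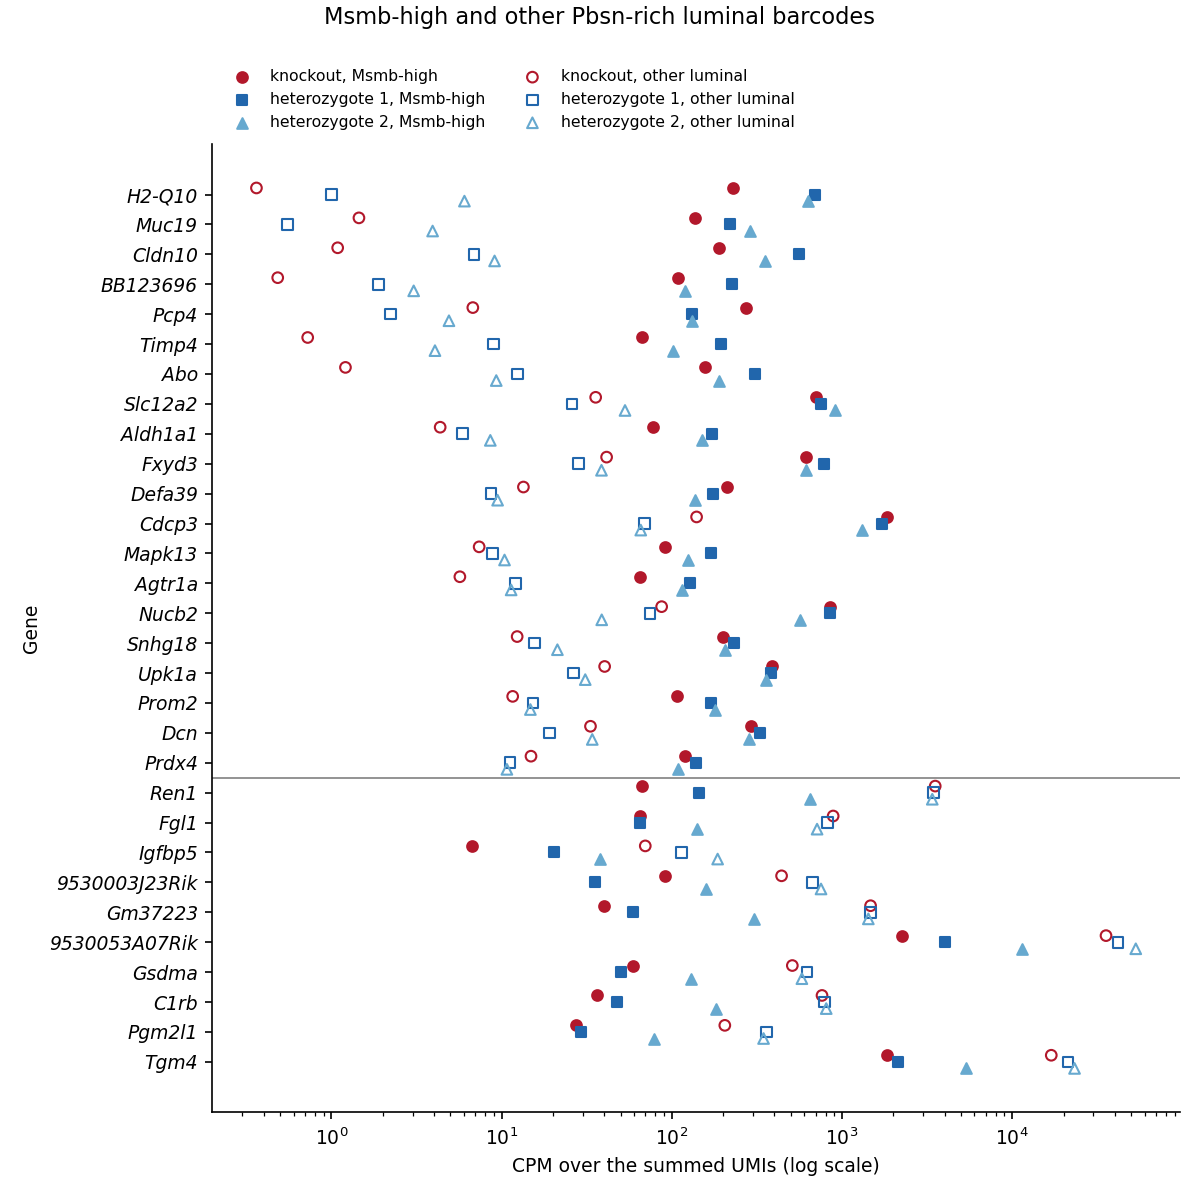
CPM (log axis) of the 20 genes highest (above the line) and 10 lowest (below it) in Msmb-high relative to other Pbsn-rich luminal barcodes, filled and open symbols, for knockout, heterozygote 1 and heterozygote 2. The genes drawn were picked by their difference in every library, so the gap between the classes is not a separate result. Among the lower genes the Msmb-high level of heterozygote 2 is the highest of the 3 libraries.

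Gene lists gave the same contrast by function, read against 4.34% of all genes higher and 2.43% lower. Of prostate secretory products, 6 of 23 genes were higher and 10 lower by over 1 in all libraries. Of the beta-defensins, 3 of 4 were higher, all of them next to Defb50. The androgen response list went both ways, with 4 of 33 higher (12.1%) and 3 lower (9.09%). Its median log2 difference was -0.14, against -0.08 over all genes. Among the higher ones, Fkbp5, a steroid receptor co-chaperone, had 92.8 CPM in knockout, 232 in heterozygote 1 and 189.8 in heterozygote 2 Msmb-high barcodes, against 19.5, 29.98 and 34.5 CPM in other luminal barcodes. Mme, the cell-surface peptidase neprilysin, had 979.5, 1432 and 1252 CPM, against 120.2, 311 and 287 CPM. No member of the luminal identity list moved by over 1 in every library.

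The knockout library held the smallest share of Msmb-high barcodes. They made up 1.803% of kept barcodes in the knockout (exact Clopper-Pearson 95% interval 1.55% to 2.08%), against 7.55% (6.81% to 8.34%) in heterozygote 1 and 8.50% (7.98% to 9.05%) in heterozygote 2. With 1 library against 2, an exact permutation test cannot go below 0.33, so the difference has no test. Among luminal barcodes, that is Msmb-high plus other Pbsn-rich ones, the shares were 25.03% (21.9% to 28.4%) in the knockout, against 29.6% (27.0% to 32.2%) and 28.6% (27.0% to 30.2%). The intervals of this second share overlap, and its difference changed sign when Pbsn of at least 5% was required of the other class (94.2% in the knockout, against 89.4% and 91.8%). Doublet candidates were barcodes with at least 3 UMIs summed over the markers of another cell class, or with over 4 times the median UMIs of the library's Msmb-high barcodes. Without them the share, out of the same kept barcodes, was 0.801% in the knockout, against 4.39% and 3.56%. When Dcn was left out of those markers, a choice made after seeing the data, the share of luminal barcodes was 28.7% in the knockout, against 29.1% and 25.4%. Intervals cover counting error only. The Svs limit left 5714 of 9983 kept barcodes in the knockout, against 3944 of 4718 and 8797 of 10587 in the heterozygotes. Fewer cells of a kind and less of their transcript per barcode cannot be told apart in these shares.

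UMIs were then summed per library over the Msmb-high barcodes and the knockout set against the heterozygotes with edgeR's quasi-likelihood test (Benjamini-Hochberg adjusted p under 0.05 over all genes). Of 11682 genes tested, 181 were called (1.55%), with 96 higher (0.822%) and 85 lower (0.728%) in the knockout, and 844 had an unadjusted p under 0.05. Over all genes the knockout stood above both heterozygotes for 33.3% and below both for 34.4%. In barcodes of at least 7%, 86 of 10833 genes were called (0.794%), 36 of them higher (0.332%) and 50 lower (0.462%). Both fits called 63 genes, 29 higher and 34 lower, with the same direction in each. The barcodes of at least 7% are a part of the Msmb-high barcodes, so the fits are not independent. Of the genes called over all Msmb-high barcodes and tested at 7% and above, 11 had the opposite sign there. DESeq2 called 41 genes over all Msmb-high barcodes. Log2 fold changes below are knockout over heterozygote with their standard error, and the CPM of tested genes are on library sizes scaled by the trimmed mean of M values (TMM). Fold changes given without 1 heterozygote are not fitted. They are plain differences in log2 CPM from the other heterozygote with a prior count of 2, which shrinks them at low counts.

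Among the genes that fell in the knockout, those called at both limits came first. G6pc2, a glucose-6-phosphatase catalytic subunit, had 1.40 CPM in the knockout, against 16.3 CPM in heterozygote 1 and 16.4 CPM in heterozygote 2. It fell by 3.53 ± 0.61 on the log2 scale (edgeR adjusted p = 2.5e-06) and by 3.23 ± 0.62 at 7% and above (adjusted p = 9.1e-05). Stra6, the membrane receptor for retinol-binding protein, had 2.45 CPM in the knockout, against 18.6 and 18.4 CPM in the heterozygotes. Its log2 fold change was -2.90 ± 0.54 (edgeR adjusted p = 2.0e-05). Both heterozygotes were nearly equal for these genes and the knockout lay far below them, at 4 UMIs for G6pc2 and 7 for Stra6. Each gene lost its call in 3 of 14 alternatives that kept all libraries. The smallest changes there were -2.95 for G6pc2 and -1.16 for Stra6. Neither gene passed the low-count filter in other luminal barcodes.

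Mt3, a metallothionein that binds zinc and copper, had 11.5 CPM in the knockout, against 42.7 and 80.8 CPM in the heterozygotes (-2.43 ± 0.44, edgeR adjusted p = 9.8e-06). In the other luminal barcodes of the same libraries it had 198 CPM in the knockout, against 145 and 206 CPM. Cdh8, a cadherin, had 2.80 CPM, against 13.3 and 14.9 CPM (-2.33 ± 0.54, adjusted p = 0.0022). Its knockout level rested on 8 UMIs, and it too lost its call in 3 of 14 alternatives. Ren1 had 69.3 CPM in the knockout, against 145 and 625 CPM, and its log2 fold change of -2.48 became -1.06 without heterozygote 2 and -3.17 without heterozygote 1. Its level in other luminal barcodes was 3633.5 CPM in the knockout, against 3538.5 and 3219.5 CPM. The test of the difference between the classes did not call Ren1 over all Msmb-high barcodes (interaction -2.28, edgeR adjusted p = 0.37) and called it at 7% and above (-2.29, adjusted p = 0.0022).

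Psca, an antigen of proximal luminal cells, and Spink5, a serine protease inhibitor, were close to absent from the knockout. Psca had 2 UMIs there (0.70 CPM), against 26.1 and 43.3 CPM, and the heterozygote over knockout ratio was 55.0 with an exact 95% interval of 15.1 to 455. Spink5 had 2.10 CPM in the knockout, against 42.0 and 105 CPM (-5.13 ± 0.58, edgeR adjusted p = 1.6e-15). Prol1 had 4.55 CPM, against 36.2 and 191 CPM, and its log2 fold change of -4.66 became -2.90 without heterozygote 2 and -5.29 without heterozygote 1. Against heterozygote 1 alone, with a prior count of 2, the log2 changes of Psca and Spink5 were -4.65 and -4.11. Against heterozygote 2 alone they were -5.37 and -5.43. These 3 genes were called at 7% and above too, but they were lower as well in the other luminal barcodes, with log2 fold changes of -3.27 for Psca, -4.23 for Spink5 and -3.12 for Prol1. Prol1 at 7% and above had 3.99 CPM in the knockout, against 33.3 and 30.3 CPM, with a smaller log2 fold change of -2.98. Psca at 2% to 5% had 0 UMIs in the knockout, against 114 and 103 CPM in the heterozygotes, and at 7% and above 0.532 CPM in the knockout, against 2.44 and 15.6 CPM.

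Sbp and Spink1 were called lower over all Msmb-high barcodes, with Sbp at 1630 CPM in the knockout, against 10644 and 12982 CPM in the heterozygotes (-2.86 ± 0.48). Spink1 had 833 CPM, against 4911 and 7001 CPM (-2.84 ± 0.48). At 7% and above the values were -0.73 for Sbp (edgeR adjusted p = 0.78) and -0.64 for Spink1 (adjusted p = 0.90). Hdac9 and 2310057J18Rik also lost their call at 7% and above. Without heterozygote 2 the fold changes of Hdac9 and 2310057J18Rik were -2.38 and -1.47, against -3.17 and -2.34 with it. Sbp and Spink1 were called lower in other luminal barcodes as well. Sbp was at 68.5 CPM there in the knockout, against 896 and 2205 CPM in the heterozygotes (-4.50). Spink1 was at 167 CPM, against 603 and 1847 CPM (-2.88). 2310057J18Rik was also called lower there (-2.84), while Hdac9 was not called (-0.62).

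Among the higher genes, Sva and Ceacam10 had the largest differences. Sva encodes a seminal vesicle antigen and had 159.6 CPM in the knockout, against 0.75 and 0.099 CPM in the heterozygotes. Ceacam10, also a product of the seminal vesicle in mice, had 358 CPM in the knockout, against 16.6 and 7.81 CPM. In other luminal barcodes Sva was at 169.5 CPM in the knockout, against 1.37 and 0.121 CPM, and Ceacam10 at 409 CPM, against 46.4 and 12.7 CPM. The share of Svs UMIs in the whole library was also largest in the knockout, at 41.7%, against 13.2% and 11.5%. Within Msmb-high barcodes the 6 seminal vesicle markers summed to 15731 CPM in the knockout, against 2204 and 16095 CPM, an order that Sva and Ceacam10 did not share. The part of seminal vesicle RNA in the result was not tested. The fitted log2 fold change of Sva was 8.99. With a prior count of 2 it was 7.17 against heterozygote 1 alone and 8.46 against heterozygote 2 alone, which held 3 and 1 UMIs of the gene. Reads of Sva may be shared with close paralogs.

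Several other named higher genes lost their call at 7% and above, while Flrt3 kept its call at a smaller value. Flrt3, a membrane adhesion protein, had 152 CPM in the knockout, against 24.9 and 22.2 CPM (2.69 ± 0.35), and 1.48 ± 0.40 on the log2 scale at 7% and above (edgeR adjusted p = 0.034). Areg, the epidermal growth factor receptor ligand amphiregulin, had 185 CPM, against 32.9 and 14.1 CPM (3.02 ± 0.35). At 7% and above Areg was at 5.13 CPM in the knockout, against 11.1 and 5.13 CPM, with a log2 value of -0.58. Neb, encoding nebulin, Vtcn1, an immune checkpoint protein, Aldh1a2, a retinaldehyde dehydrogenase, and Gm35439 were called over all Msmb-high barcodes and not at 7%, where Aldh1a2 and Gm35439 did not pass the low-count filter. Without heterozygote 1 the fold changes of Areg, Vtcn1 and Gm35439 were 3.68, 3.49 and 3.40. Without heterozygote 2 those of Neb, Aldh1a2, Vtcn1 and Gm35439 were 3.20, 4.38, 1.98 and 1.799. Areg and Neb were also called higher in other luminal barcodes, with log2 fold changes of 1.44 and 1.89. Flrt3, Vtcn1, Aldh1a2 and Gm35439 were not called there.

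The 10 highest barcodes held 46.5% of all Areg UMIs and 49.6% of all Neb UMIs, and among the lower genes 37.9% for Psca, 37.5% for Spink5, 35.2% for Prol1 and 5.88% for H2-Q10. Lcmt1, a methyltransferase of protein phosphatase 2A, had 596 CPM in the knockout, against 166 and 66.6 CPM, and kept its call at 7% (1.72 ± 0.33). Mad2l1, a spindle checkpoint protein, had 25.5 CPM, against 6.79 and 3.56 CPM, and also kept it (2.47 ± 0.46). Aqp8, a water channel, had 129 CPM, against 29.2 and 5.84 CPM, and Cyp2s1, a cytochrome P450, had 23.4 CPM, against 5.53 and 2.27 CPM, and both were called at 7% as well. Without heterozygote 1 the fold changes of Aqp8 and Lcmt1 were 4.39 and 3.16, and without heterozygote 2 those of Aqp8 and Cyp2s1 were 2.14 and 2.02. Lcmt1, Mad2l1, Aqp8 and Cyp2s1 were also called higher in other luminal barcodes, with log2 fold changes of 1.38, 1.51, 3.88 and 1.98.

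**Figure D4:**
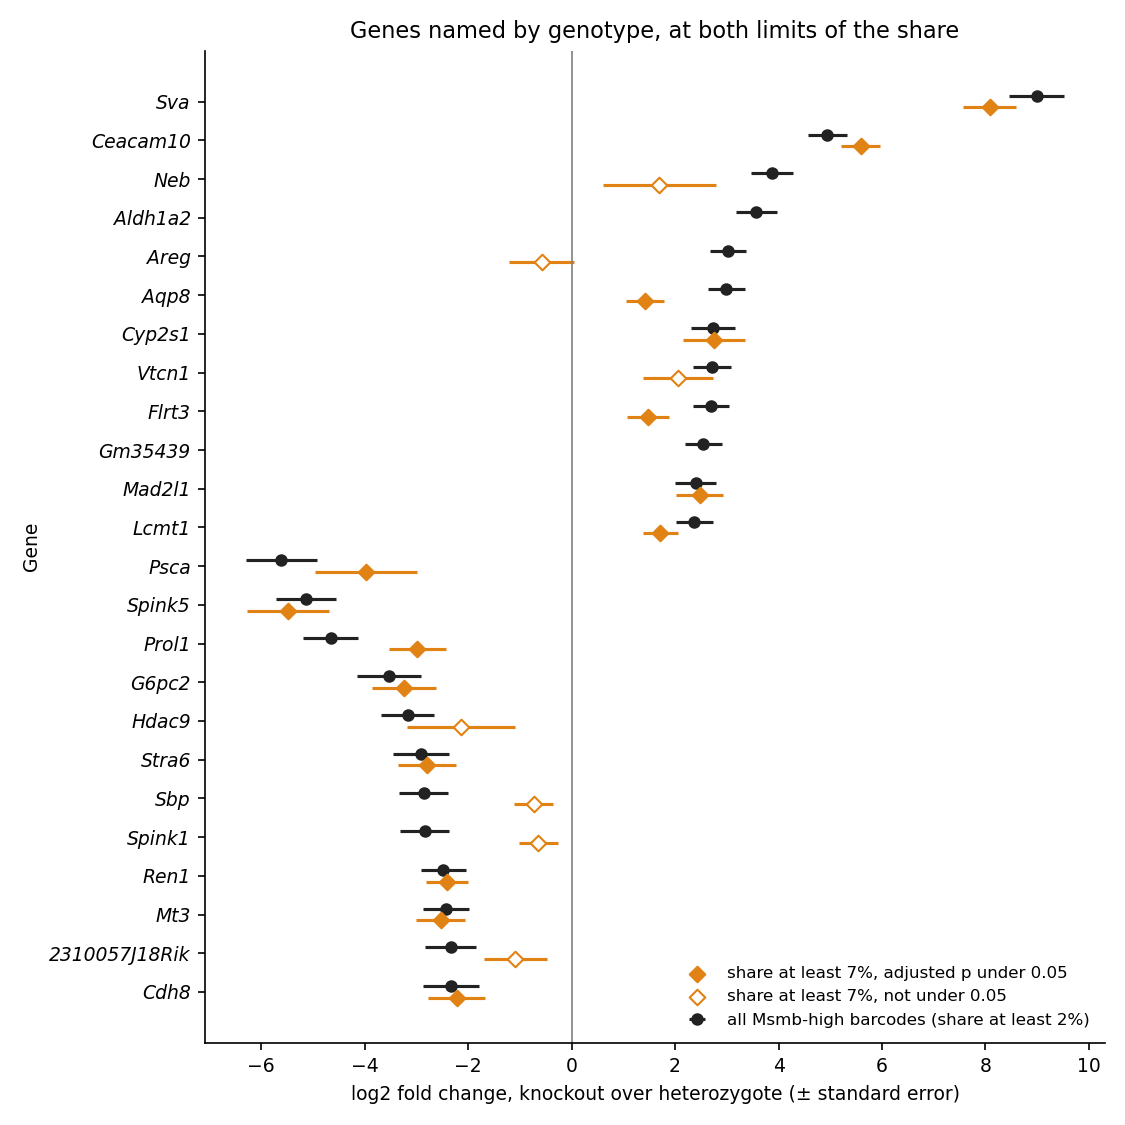
Log2 fold change, knockout over heterozygote, with its standard error, for the 24 named genes in all Msmb-high barcodes (black circles) and in those of at least 7% (diamonds, filled where the edgeR adjusted p is under 0.05). Genes without a diamond did not pass the low-count filter. Areg changes sign, and Sbp and Spink1 move close to 0, while Stra6 (-2.90 and -2.79), Mt3 (-2.43 and -2.53), Ren1 (-2.48 and -2.40) and Cdh8 (-2.33 and -2.22) keep close values.

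The class genes themselves were then read by genotype, since the contrast that chose them ran within each library. Of the 20 genes highest in Msmb-high barcodes, H2-Q10 alone was called over all Msmb-high barcodes, and Pcp4 was called besides at 7% and above. H2-Q10 had 237 CPM in the knockout, against 704 and 611 CPM in the heterozygotes (-1.47 ± 0.42, edgeR adjusted p = 0.030). At 7% and above it had 349 CPM, against 926 and 870.3 CPM (-1.36 ± 0.38, adjusted p = 0.048). Pcp4, a small regulator of calmodulin, had 434 CPM in the knockout at 7% and above, against 169 and 182 CPM (1.30 ± 0.34, adjusted p = 0.020). The heterozygotes were close to each other for both genes and the knockout lay outside them.

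The other class genes were not called. Cldn10 had 291 CPM at 7% and above in the knockout, against 709 and 479.85 CPM (-1.03 ± 0.38, edgeR adjusted p = 0.29); in other luminal barcodes, at far lower levels, it was called lower (-2.81). Muc19 had 197 CPM, against 285 and 406 CPM (-0.81 ± 0.37, adjusted p = 0.64). Fkbp5 showed a value in the same direction, with 129.9 CPM in the knockout, against 276 and 238 CPM (-0.98, adjusted p = 0.32). Slc12a2, Fxyd3, Nucb2, Snhg18, Upk1a, Dcn and Prdx4 had log2 values between -0.26 (Slc12a2) and 0.33 (Nucb2) at that limit. H2-Q10, at chr17:35470089-35474563, and Rrp1b, at chr17:32036100-32062865, lie on the chromosome of Srd5a2 (chr17:74016955-74047916). Rrp1b, a nucleolar protein, had 458 CPM in the knockout at 7% and above, against 155 and 169 CPM (1.496 ± 0.34, adjusted p = 0.0024), and was higher in other luminal barcodes as well (1.31, adjusted p = 0.033).

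A few further genes called at 7% and above were chosen here after their values were seen. Rgs2, a brake on G protein signalling, had 77.5 CPM in the knockout, against 303 and 266 CPM (-1.87 ± 0.39, edgeR adjusted p = 5.5e-04). Nrg1, a ligand of ErbB receptors, had 142 CPM, against 335 and 431 CPM (-1.43 ± 0.38). Timp2, a metalloproteinase inhibitor, had 45.6 CPM, against 134 and 163 CPM (-1.71 ± 0.39). Cited2, a transcriptional coregulator, had 92.9 CPM, against 236 and 231 CPM, and Egr2, an immediate early factor, had 5.70 CPM, against 21.8 and 28.05 CPM. For all 5 genes the knockout was below both heterozygotes at this limit. Over all Msmb-high barcodes Timp2 and Egr2 were called too, while Rgs2 (-0.85, adjusted p = 0.50) and Cited2 (-1.26, adjusted p = 0.072) were not. Nrg1 had 469.9 CPM in the knockout over all Msmb-high barcodes, against 431 and 421 CPM, with a log2 value of 0.14.

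**Figure D5:**
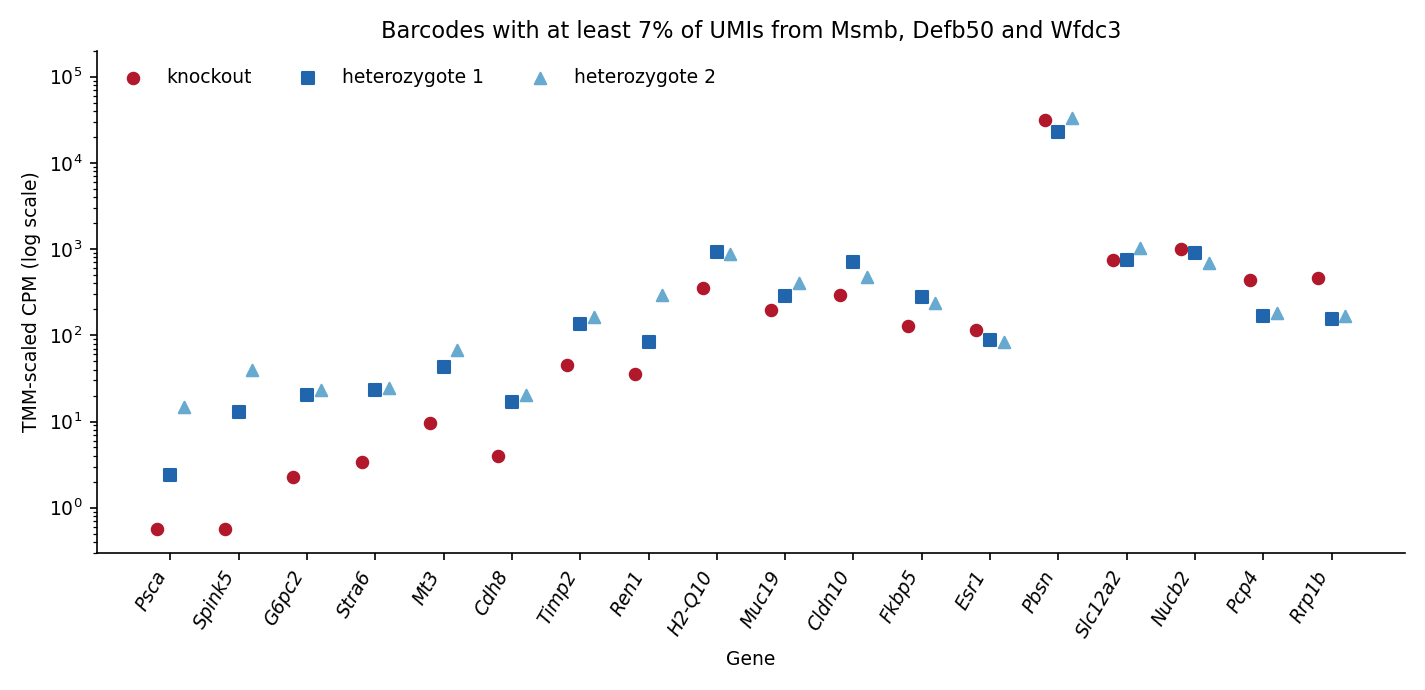
TMM-scaled CPM (log axis) of 18 genes in Msmb-high barcodes of at least 7%, 1 point per library, for knockout, heterozygote 1 and heterozygote 2. Genes from Psca to H2-Q10 lie lower in the knockout and Pcp4 and Rrp1b higher (edgeR adjusted p under 0.05); Muc19 to Nucb2 were not called.

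Neither Esr1 nor Pgr was called in Msmb-high barcodes. Esr1, encoding estrogen receptor alpha, had 121 CPM in the knockout, against 89.2 and 83.6 CPM in the heterozygotes (0.48 ± 0.36, edgeR adjusted p = 0.98). Pgr, the progesterone receptor gene and a classic estrogen target, had 10.8 CPM, against 6.53 and 2.87 CPM (1.31 ± 0.50, adjusted p = 0.28). The knockout was the highest of the 3 libraries for both genes, within a distance the test did not call.

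A UMI of Esr1 was seen in 56.7% of knockout Msmb-high barcodes, against 46.3% in heterozygote 1 and 48.6% in heterozygote 2, at their unequal depths. After each barcode was thinned to 1000 UMIs the shares were 11.1% (exact 95% interval 6.92% to 16.6%) in the knockout, against 8.15% (5.52% to 11.5%) and 7.97% (6.27% to 9.97%) in the heterozygotes, with 0, 0 and 22 barcodes too shallow. Other luminal barcodes gave 10.4%, 9.08% and 7.93% in the same order. Barcodes with macrophage markers, a cell type that can itself express the gene, gave 1 of 101, 0 of 22 and 0 of 67, at median depths of 3980, 3236.5 and 2528.5 UMIs. The intervals of the libraries overlap, and at 2000 UMIs the knockout share was 17.5%, against 20.2% and 17.3%, so no order is read from these shares.

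Lists of genes were read against the background of 0.822% higher and 0.728% lower over all genes tested. Of 39 androgen response genes none was called, with a median log2 value of -0.04 against -0.02 over all genes. Of 13 estrogen receptor and estrogen-induced genes 2 were higher, Areg and Greb1, and at 7% and above Areg was not called and Greb1 did not pass the low-count filter. Of 24 prostate secretory products 1 was higher and 8 lower. The higher one was Ms4a5, with 619 CPM in the knockout, against 184 and 227 CPM (1.59 ± 0.36); at 7% and above its value was -0.30, not called by edgeR. The lower ones were C1rb, C1s2, Mmp7, Nupr1, Ren1, Sbp, Spink1 and Spink5, and at 7% and above Ren1, Spink5, Tcaf3 and Tgm4 were called lower. Several of these rested on heterozygote 2, since C1rb had 37.8 CPM in the knockout, against 48.0 and 177 CPM, C1s2 had 10.8 CPM, against 11.8 and 59.7 CPM, and Tgm4 at 7% and above had 421 CPM, against 535 and 1918 CPM.

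Of 12 proximal luminal genes 4 were lower (Cyp2f2, Krt7, Psca and Wfdc2) and none higher, with a median of -1.32, and at 7% and above Psca and Wfdc2 were lower. Wfdc2 at that limit had 1.71 CPM in the knockout, against 1.04 CPM in heterozygote 1 and 35.6 CPM in heterozygote 2. Of 20 zinc, metallothionein and citrate genes 3 were lower, namely Mt3, Ank and the zinc transporter gene Slc39a8. Ank lost its call at 7% and above (-1.64, edgeR adjusted p = 0.14). Of 20 immediate early genes 2 were lower, Egr2 and Klf2, and Klf2 lost its call at 7% and above (-1.59, edgeR adjusted p = 0.63). Of 15 matrix protease and inhibitor genes Plat was higher and Igfbp5, Mmp7 and Timp2 lower. Only Timp2 of these was called at 7% and above, where Plat had a value of 0.66 (3.85 over all Msmb-high barcodes), Igfbp5 -0.48 (-2.05) and Mmp7 -1.10 (-1.51). Of 24 glutathione and oxidative defence genes Gpx3, a secreted peroxidase, was higher (3242 CPM in the knockout, against 1693 and 602 CPM) and at 7% and above had a value of -0.06.

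Of 24 genes of folding and stress in the endoplasmic reticulum none was called, and 16 were above both heterozygotes in the knockout against 33.3% of all genes. Their median was 0.39 on the log2 scale, with Hspa5, the main chaperone, at 7333 CPM in the knockout, against 5824 and 3084.5 CPM. Heterozygote 1 was thus nearer to the knockout than to heterozygote 2 for this gene. No gene was called among 23 cholesterol synthesis, 10 cell cycle, 16 heat shock, 16 interferon-stimulated, 14 disulfide bond, 11 steroid enzyme and receptor and 10 polyamine genes tested; their medians lay between -0.55 and 0.23. Of 7 Wfdc genes Wfdc2 was lower, and of 6 beta-defensins Defb2 was higher, at 22.04 CPM in the knockout, against 10.3 and 6.43 CPM, and lost its call at 7% and above (1.07, edgeR adjusted p = 0.49).

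The class II genes Cd74 and H2-Aa, picked out after their values were seen, were also called higher in the knockout. Cd74, the invariant chain of class II molecules, had 44.1 CPM there, against 2.76 and 8.31 CPM, and H2-Aa, a class II chain, had 25.2 CPM, against 1.01 and 3.96 CPM. These transcripts came from few barcodes, since the 10 highest held 82.4% of Cd74 and 85.3% of H2-Aa UMIs. Both kept their call at 7% and above. Of the macrophage markers, 4 of 6 were tested and C1qa and C1qb were called higher, with 100% of their UMIs in 10 barcodes. Cd68, the most abundant macrophage marker in both heterozygotes, was not called, at 3.15 CPM in the knockout, against 5.03 and 5.74 CPM over all Msmb-high barcodes and 0.57 CPM, against 4.16 and 5.77 CPM, at 7% and above. In all, 2 knockout, 0 heterozygote 1 and 1 heterozygote 2 Msmb-high barcodes held at least 3 macrophage marker UMIs. The part of mixed droplets in these calls was not tested.

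In other Pbsn-rich luminal barcodes the same fit called 121 of 13269 genes (0.912%), 66 higher (0.497%) and 55 lower (0.414%), and 42 genes were called in both classes. The classes come from the same 3 libraries. Of the 63 genes called at both limits in Msmb-high barcodes, 57 were tested in other luminal barcodes and 19 of them were called there in the same direction, 12 higher and 7 lower. Whether a genotype difference was larger in one class was tested as an interaction, with library as a term, and 39 of 14446 genes were called (0.27%), 24 (0.166%) with a higher and 15 (0.104%) with a lower difference in Msmb-high barcodes. At 7% and above 104 were called, 21 of them shared with the 39.

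Mt3 differed between the classes in its genotype difference, with an interaction of -2.60 (edgeR adjusted p = 0.0077) and of -2.69 at 7% and above (adjusted p = 3.9e-06). Pnliprp1, a pancreatic lipase-related protein, had 51.1 CPM in knockout Msmb-high barcodes, against 45.8 and 109 CPM in the heterozygotes. In other luminal barcodes it had 677 CPM in the knockout, against 142 and 224 CPM, and the interaction was -2.44 (adjusted p = 0.0070) and -2.62 at 7% and above. Nupr1, a stress-induced chromatin protein, had 60.5 CPM in knockout Msmb-high barcodes, against 125 and 231 CPM, and 2.09 CPM in other luminal barcodes of the knockout, against 36.5 and 66.4 CPM. Its interaction was 3.06 (adjusted p = 0.0053), with the knockout lower in both classes and more so in the other luminal one. Nupr1 was not called in Msmb-high barcodes of at least 7% (-0.43). H2-Q10 was at 6.05 CPM or less in other luminal barcodes of every library, and its interaction was 1.91 (adjusted p = 0.75).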

How the data were processed

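Per the labels and the submitters' processing notes, the authors made each 10x Genomics library's deposited UMI count matrix with Cell Ranger 3.1.0 on mm10. Each matrix holds counts of 32594 genes, of which the IDs of 31875 matched GENCODE vM21. How barcodes were called is not given in the sources used here. The members, the 28 gene lists and the limits were chosen with earlier results of these data known, and no doublet caller was run. Barcodes were kept and classed by the stated limits. Raw counts were summed per library and class, because barcodes of 1 library are not replicates, and fitted with edgeR 4.0.16 in R 4.3.3 (filterByExpr, TMM, quasi-likelihood test, Benjamini-Hochberg threshold 0.05). The single knockout library leaves 1 residual degree of freedom, from the heterozygote pair. The interaction fit had library, class and knockout by class as terms. Fold changes against single libraries used a prior count of 2. CPM of classes and share groups are plain, and CPM of tested genes are TMM-scaled. Named genes had at least 10 CPM on average, the knockout outside both heterozygotes and under 50% of UMIs in 10 barcodes; the 12 largest changes each way were taken, plus list members. The interaction named the 10 smallest adjusted p-values. Alternatives included DESeq2 1.42.0, limma 3.58.1 (voom), other limits, doublet candidates removed and each heterozygote left out. Depth is 129015041 UMIs in the knockout, 47601747 in heterozygote 1 and 100801564 in heterozygote 2. Fits were tested on simulated data. Python 3.11.15, numpy 2.4.6, scipy 1.17.1, pandas 2.3.3 and matplotlib 3.10.9 were used.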

Additional observations from a re-analysis of the deposited data

Results flagged for a closer look

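The 10 genes below were picked out because the knockout against heterozygote difference itself differed between Msmb-high and other Pbsn-rich luminal barcodes (edgeR interaction, adjusted p under 0.05). Values are the log2 difference in Msmb-high barcodes minus that in other luminal barcodes. Mt3 had -2.60, Pnliprp1 -2.44, Nupr1 3.06 and Pecam1, an endothelial adhesion molecule, -2.35. These 4 were also called at 7% and above, with -2.69, -2.62, 4.19 and -1.96. Pecam1 had 30.4 CPM in knockout Msmb-high barcodes, against 83.5 and 93.1 CPM in the heterozygotes, and 102 CPM in other luminal barcodes of the knockout, against 61.8 and 55.0 CPM. The keratin condition on the other luminal barcodes used Pecam1 and was not required of the Msmb-high ones. The interaction of Pecam1 is therefore a description and not a test.

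Plat, tissue plasminogen activator, had 2.80, Sox5 2.19, Kcng2 2.82, Cpm 1.62, Flrt3 2.37 and Gm49890 1.81. None of these 6 was called at 7% and above, where their values were -0.33, -1.93, 0.91, 0.44, 1.13 and -2.81. Plat had 138 CPM in knockout Msmb-high barcodes, against 9.41 and 9.93 CPM, and its 10 highest barcodes held 52.7% of its UMIs.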

How the results depend on the processing

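Of 24 named genes, 6 kept their call and direction in every alternative in which they were tested, not counting those that left out a heterozygote. Sva, Ceacam10, Psca, Spink5 and Mt3 did so in 14 alternatives. Aldh1a2 was tested in only 12, and not at 7% and above, where it did not pass the low-count filter. DESeq2 lost 13 of the 24 calls and limma-voom 4. Areg reversed at a 5% limit (-0.44) and at 7% (-0.58). The 181 genes called in Msmb-high barcodes became 41 with DESeq2, 104 at 5% and 86 at 7%; limma-voom called 93 higher and 36 lower, against 96 and 85. The 121 calls in other luminal barcodes became 185 without the low-count filter, 50 with DESeq2, 185 with limma-voom and 200 with Pbsn of at least 2% as the only condition. The 39 interaction calls became 70 with relative log expression factors, 336 without the filter, 105 without rule and mitochondrial genes, 171 at a 1% limit, 104 at 7%, 171 at a 5% Svs limit, 269 at 1000 genes and 10% mitochondrial UMIs, 185 at a common depth floor and 92 with Pbsn alone. Interactions reversed at 5% and 7% for Plat (-0.34 and -0.33), Sox5 (-1.89 and -1.93) and Gm49890 (-1.37 and -2.81). The cause of these changes was not tested.

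The knockout share of kept barcodes minus the heterozygote mean was -6.22 percentage points, and -8.83 at 1%, -3.90 at 5%, -3.36 at 7%, -3.17 without doublet candidates and -4.38 without them when Dcn was not counted. It ran between -6.70 and -5.74 with either heterozygote left out. Among luminal barcodes it was -4.03, and -5.35 at a 5% Svs limit, -5.36 at the depth floor, -1.71 without doublet candidates, 1.53 without them when Dcn was not counted and 3.60 with Pbsn of at least 5%, with -4.53 to -3.53 on leaving out a heterozygote. The Esr1 share difference was 3.05, and -1.28 at 2000 UMIs, -0.60 without doublet candidates, 2.83 with another seed, 1.87 at 1%, 3.88 at 5%, 3.70 at 7%, 6.53 at a 5% Svs limit, 1.21 at 1000 genes and 10% mitochondrial UMIs and 3.80 at the depth floor, with 2.97 to 3.14 on leaving out a heterozygote. The 7% limit and the Dcn exception were chosen after seeing the data. No paired analysis was possible because replicate numbers only name the libraries and the single knockout shares fewer than 2 numbers with the heterozygotes. The fits with Pbsn of at least 5% were not run (11 knockout barcodes), and counts of calls without a heterozygote have no residual degree of freedom. With 180 knockout barcodes and 1 knockout library, small differences were not detectable.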
